A study of Mus musculus with 19 samples.

Results

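The 10 genes described here mark fibroblasts of the heart, either at rest or after activation, and were measured in mouse ventricle after loss of Mpc1. They were taken by gene symbol from the 55536 genes of the count tables, and all 10 were found. The resident and lineage markers are Pdgfra, Tcf21, Ddr2, Dpt, Gsn, Pi16 and Mfap5, and the activation markers are Meox1, Cthrc1 and Fap. The groups are KO-8 (Mpc1 knockout, 8 weeks after induction, 4 libraries), WT-8 (wild type at the same time, 5 libraries), KO-16 (Mpc1 knockout, 16 weeks after induction, 5 libraries) and WT-16 (wild type at 16 weeks, 5 libraries). The protein made from Mpc1 forms, with Mpc2, the carrier that takes pyruvate into mitochondria. The series describes an inducible deletion in the heart of adult mice. The sources used here name no Cre driver, inducing agent, strain or age, and do not say whether the WT mice received the inducing treatment. Nor is it stated that every library is a separate animal, and p-values here measure spread between libraries only.

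Cardiac fibroblasts keep the matrix of the heart wall. PDGF receptor alpha, the transcription factor Tcf21 and the collagen receptor Ddr2 mark the cells at rest, and Pi16 and Mfap5 are enriched in fibroblasts near vessels and in connective tissue sheaths in mouse. After injury or pressure load, TGF-beta and mechanical signals turn part of these cells into matrix-secreting cells. Meox1, Cthrc1 and Fap are markers of that activated state. In RNA from whole ventricle a change in the number of fibroblasts and a change in the RNA made per fibroblast cannot be told apart.

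Libraries held 16.5 to 19.5 M (mega) read pairs counted on genes in KO-8 and 17.4 to 27.5 M in WT-8. At 16 weeks they held 9.54 to 26.9 M in KO and 8.63 to 19.7 M in WT. Part of the 16-week counts lay on CT010467.1, a gene annotated over 18S ribosomal RNA, which took 1.71% to 30.0% in KO-16, 6.88% to 39.1% in WT-16 and at most 0.0666% in any 8-week library. Sex-linked transcripts marked KO-16 replicate 4 and WT-16 replicate 5 as male and the other libraries as female. The tables of the 8-week and 16-week libraries carry different date codes and no library links them, so a difference in level between the times and one between batches cannot be told apart. By the edgeR quasi-likelihood test Mpc1 fell in KO-8 (log2 fold change -2.80, SE 0.10, adjusted p = 2.94e-10) and in KO-16 (-2.20, SE 0.25, adjusted p = 0.000992). No KO library reached the lowest WT library of its time. The defining markers of heart muscle were present, the 10 cardiomyocyte genes summing to 108300 to 117000 CPM (counts scaled to the same library size) in KO-8, 115500 to 120400 in WT-8, 90500 to 127100 in KO-16 and 117800 to 130700 in WT-16.

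Levels are CPM after scaling each library by its TMM factor (trimmed mean of M values, which corrects for a few very abundant genes). A gene was called where its adjusted p (Benjamini-Hochberg, over all genes tested) was under 0.05, and log2 fold changes are KO over WT. Of the 10 markers 9 passed the filter on low counts and were tested, and Cthrc1 did not. At 8 weeks 2 of the 9 rose (Mfap5 and Meox1) and 0 fell, against 8.22% of all 15503 genes called in either direction, 3.54% higher and 4.68% lower. At 16 weeks 3 of the 9 rose (Pi16, Mfap5 and Meox1) and 0 fell, against 2.55% called, 1.74% higher and 0.813% lower. The median log2 fold change of the 9 was 0.21 at 8 weeks and 0.47 at 16 weeks, against -0.02 and 0.03 over all genes tested. Pdgfra, Tcf21, Ddr2, Dpt and Gsn passed at neither time. Of the 9 genes, 2 had KO-8 libraries that all lay above WT-8 (Mfap5 and Meox1), where 10.9% of all genes had groups without overlap (4.27% with KO higher and 6.61% with KO lower). At 16 weeks 1 did (Pi16), where 4.24% of all genes had groups without overlap (2.01% with KO higher and 2.24% with KO lower).

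The proximal promoter of Pi16, which rose at 16 weeks, is shown with those of Pdgfra and Dpt, which did not pass, because Tcf21 belongs to the basic helix-loop-helix factors that read E-boxes and TGF-beta acts through SMAD factors. Sequences are from RefSeq on GRCm38.p6 and run 5′ to 3′ from 250 bases before to 50 bases after the annotated start. RefSeq entries were matched for 6 of the 10 markers (8 entries). Capitals mark E-boxes (CANNTG) and the SMAD motif CAGAC or its reverse complement GTCTG, both strands having been searched. The positions are chr17:29318632-29318931 for Pi16, chr5:75152001-75152300 for Pdgfra and chr1:164796413-164796712 for Dpt, all on the plus strand.
Pi16: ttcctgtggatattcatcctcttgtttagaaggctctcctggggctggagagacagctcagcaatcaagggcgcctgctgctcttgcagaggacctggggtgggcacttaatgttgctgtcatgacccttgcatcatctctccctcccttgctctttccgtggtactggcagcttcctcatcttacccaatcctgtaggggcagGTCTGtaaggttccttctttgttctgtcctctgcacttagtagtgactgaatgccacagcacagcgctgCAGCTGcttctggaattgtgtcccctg
Pdgfra: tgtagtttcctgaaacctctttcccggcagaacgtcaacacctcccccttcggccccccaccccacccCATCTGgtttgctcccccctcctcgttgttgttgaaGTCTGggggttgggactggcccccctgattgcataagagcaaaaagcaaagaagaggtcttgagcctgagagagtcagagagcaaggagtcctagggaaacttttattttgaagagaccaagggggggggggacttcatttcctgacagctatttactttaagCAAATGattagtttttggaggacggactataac
Dpt: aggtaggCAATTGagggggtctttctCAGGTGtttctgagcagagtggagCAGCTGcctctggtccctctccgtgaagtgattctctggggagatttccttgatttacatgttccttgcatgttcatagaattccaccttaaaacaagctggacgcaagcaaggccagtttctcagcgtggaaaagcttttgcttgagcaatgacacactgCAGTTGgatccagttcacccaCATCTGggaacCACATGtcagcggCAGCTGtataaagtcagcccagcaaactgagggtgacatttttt
Pi16 had 1 E-box, 23 bases after the start, and 1 CAGAC match, 46 bases before it. Pdgfra had E-boxes 182 bases before and 17 bases after the start and a CAGAC match 146 bases before it. Dpt had 7 E-boxes and 0 CAGAC matches, with TATAAA 12 bases after the start. No E-box overlapped a CAGAC match. Of 32851 RefSeq promoters of this length, 72.3% held an E-box, 49.6% CAGAC on either strand and 13.6% TATAAA. The matches describe letters in these windows and not binding. The start used for Pi16 lies inside the longer gene span of the count annotation.

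**Figure D1:**
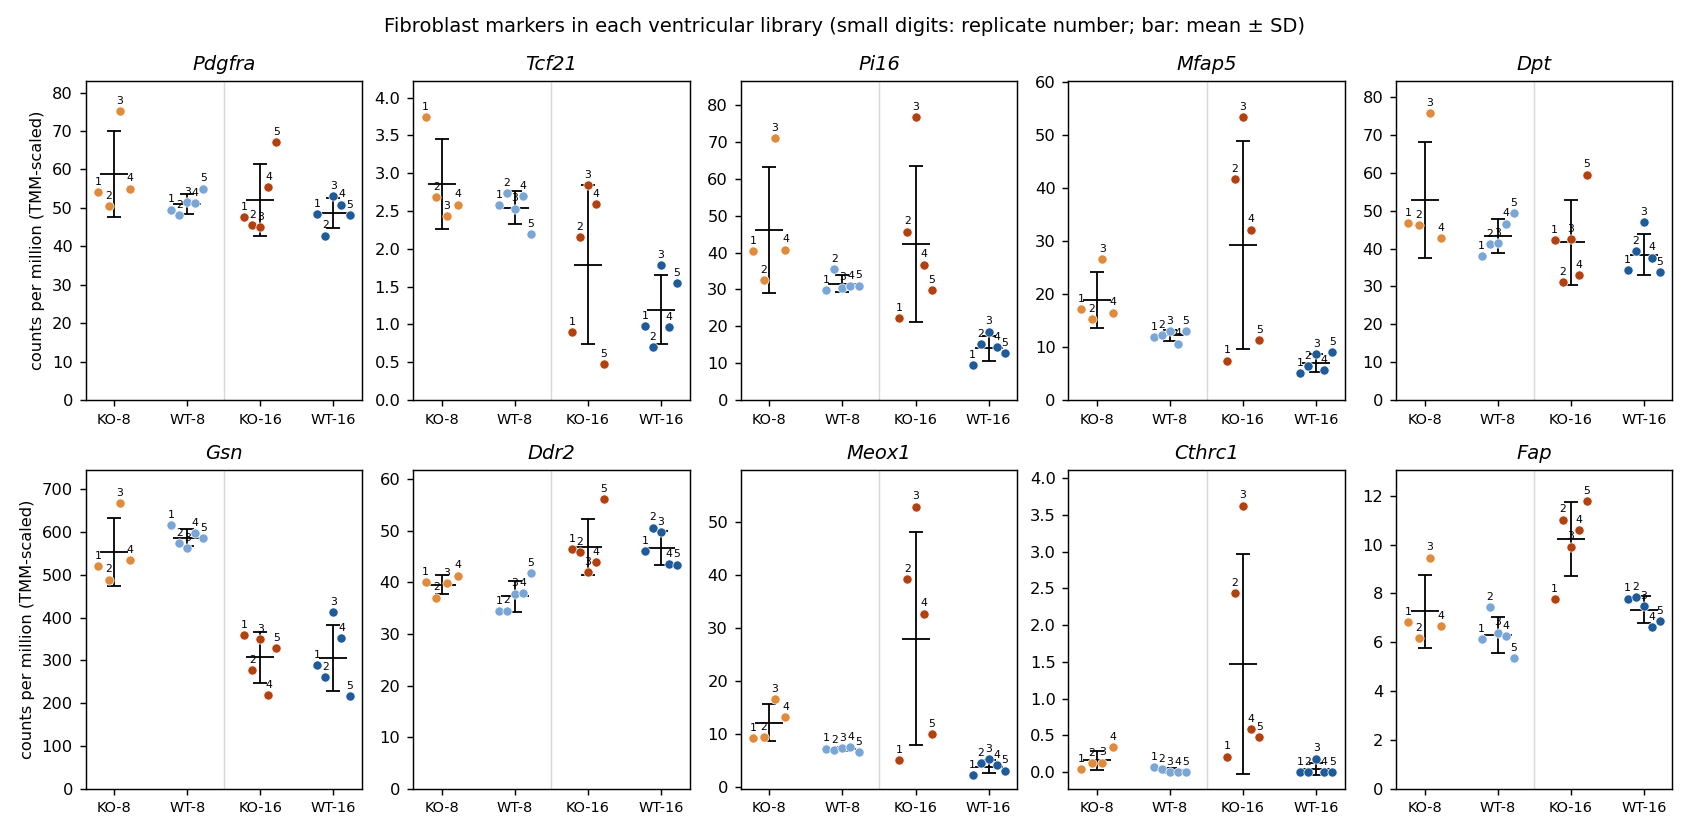
Each panel is 1 marker, with CPM on a linear vertical axis and the 4 groups along the horizontal axis, KO left of WT at each time. Points are single libraries with their replicate number, and bars are the mean and SD. Meox1, Mfap5 and Cthrc1 spread over more than the whole WT-16 range within KO-16, where replicate 3 is highest for each, while Pdgfra, Dpt, Gsn and Ddr2 overlap between KO and WT at both times.

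Pdgfra, the receptor tyrosine kinase for PDGF ligands that defines the fibroblast lineage of the heart (ENSMUSG00000029231, GRCm38 chromosome 5, 75152292 to 75198215, plus strand), had no difference past the threshold. KO-8 had 54.2, 50.4, 75.2 and 55.0 CPM, against 49.6, 48.1, 51.6, 51.2 and 55.0 CPM in WT-8. KO-16 had 47.6, 45.6, 44.9, 55.4 and 67.2 CPM, against 48.5, 42.8, 53.0, 50.9 and 48.1 CPM in WT-16. The groups overlapped at both times, with 1 high library in each KO group (replicate 3 at 8 weeks and replicate 5 at 16 weeks). The log2 fold changes were 0.20 (SE 0.10, adjusted p = 0.224) and 0.09 (SE 0.13, adjusted p = 0.692) by the edgeR quasi-likelihood test. Without KO-8 replicate 3 the 8-week value was 0.06.

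Tcf21, a basic helix-loop-helix factor that cardiac fibroblasts need to form in mouse (ENSMUSG00000045680, chromosome 10, 22817281 to 22820174, minus strand), was low. KO-8 had 3.74, 2.69, 2.43 and 2.58 CPM, against 2.58, 2.73, 2.53, 2.69 and 2.20 CPM in WT-8. KO-16 had 0.903, 2.15, 2.84, 2.59 and 0.478 CPM from 13, 75, 47, 22 and 3 counts. WT-16 had 0.974, 0.699, 1.79, 0.969 and 1.55 CPM from 4, 4, 39, 6 and 7 counts. KO-16 replicates 2, 3 and 4 lay above every WT-16 library, and replicate 5 lay below them all. The log2 fold change was 0.17 at 8 weeks (SE 0.14, adjusted p = 0.523), and 0.55 at 16 weeks (SE 0.44, adjusted p = 0.471). An antisense gene, Gm10824, covers Tcf21 and had 150 counts in all libraries together against 840 for Tcf21, counted by strand.

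Ddr2, a receptor tyrosine kinase that binds fibrillar collagen (ENSMUSG00000026674, chromosome 1, 169972307 to 170110762, minus strand), was the steadiest of the 10 in the KO groups. KO-8 had 40.0, 37.1, 39.9 and 41.3 CPM, against 34.4, 34.6, 37.9, 37.9 and 41.8 CPM in WT-8. KO-16 had 46.5, 45.96, 42.1, 43.9 and 56.2 CPM, against 46.01, 50.7, 49.7, 43.6 and 43.5 CPM in WT-16. Its coefficient of variation was 4.54% in KO-8 and 11.7% in KO-16. The log2 fold changes, 0.08 at 8 weeks (SE 0.07, adjusted p = 0.489), and 0.00 at 16 weeks (SE 0.11, adjusted p = 0.990), did not pass.

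Dpt encodes dermatopontin, a small matrix protein that binds decorin (ENSMUSG00000026574, chromosome 1, 164796644 to 164824266, plus strand). KO-8 had 46.7, 46.2, 75.7 and 42.7 CPM, against 38.1, 41.1, 41.5, 46.6 and 49.3 CPM in WT-8. KO-16 had 42.2, 31.1, 42.4, 33.1 and 59.5 CPM, against 34.3, 39.3, 47.0, 37.6 and 33.7 CPM in WT-16. As for Pdgfra, the highest libraries were KO-8 replicate 3 and KO-16 replicate 5, and the other libraries overlapped. Its log2 fold change was 0.29 at 8 weeks (SE 0.14, adjusted p = 0.227), and 0.10 at 16 weeks (SE 0.17, adjusted p = 0.741), and 0.06 at 8 weeks without KO-8 replicate 3.

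Gsn encodes gelsolin, which severs and caps actin filaments and is made by other cells of the heart as well (ENSMUSG00000026879, chromosome 2, 35256380 to 35307892, plus strand). KO-8 had 520, 489, 668 and 534 CPM, against 616, 574, 563, 597 and 586 CPM in WT-8. KO-16 had 359.6, 277, 349.8, 218 and 329.6 CPM, against 288, 261, 412, 352 and 216 CPM in WT-16. In 3 of the 4 KO-8 libraries Gsn lay below every WT-8 library and in replicate 3 it lay above them, and at 16 weeks the groups overlapped along their whole range. The log2 fold changes were -0.09 (SE 0.08, adjusted p = 0.560) and 0.00 (SE 0.18, adjusted p = 0.993). Without KO-8 replicate 3 the 8-week value was -0.19 (adjusted p = 0.0822).

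Pi16 encodes a secreted peptidase inhibitor of the CAP family and marks fibroblasts of vessel sheaths in mouse (ENSMUSG00000024011, chromosome 17, 29317680 to 29330593, plus strand). KO-8 had 40.3, 32.6, 71.1 and 40.8 CPM, against 29.8, 35.5, 30.5, 31.0 and 31.1 CPM in WT-8. The 8-week groups overlapped through KO-8 replicate 2 and WT-8 replicate 2, and the log2 fold change of 0.55 (SE 0.16, adjusted p = 0.0504) missed the threshold. It was 0.26 without KO-8 replicate 3, and it passed without KO-8 replicate 2 (0.69, adjusted p = 0.0172) or replicate 4 (0.61, adjusted p = 0.0486). At 16 weeks KO had 22.3, 45.7, 76.7, 36.7 and 29.9 CPM, against 9.50, 15.2, 18.6, 14.4 and 12.6 CPM in WT. The lowest KO-16 library lay above the highest WT-16 library. Pi16 averaged 42.3 ± 21.1 CPM in KO-16 and 14.1 ± 3.35 CPM in WT-16 (SD, n = 5 each), a 2.96-fold rise (log2 fold change 1.56, SE 0.285, adjusted p = 0.0188).

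Mfap5, a glycoprotein of fibrillin microfibrils (ENSMUSG00000030116, chromosome 6, 122505845 to 122529290, plus strand), rose at both times. KO-8 had 17.1, 15.2, 26.6 and 16.5 CPM, against 11.9, 12.3, 13.02, 10.7 and 12.98 CPM in WT-8, without overlap. The log2 fold change at 8 weeks was 0.63 (SE 0.13, adjusted p = 0.0101), and 0.42 (adjusted p = 0.00707) without KO-8 replicate 3. KO-16 had 7.43, 41.7, 53.3, 32.1 and 11.3 CPM, against 5.11, 6.46, 8.63, 5.65 and 9.09 CPM in WT-16. Replicates 2, 3 and 4 of KO-16 were well above every WT-16 library, replicate 5 was just above them, and replicate 1 lay within their range. The 16-week log2 fold change was 2.05 (SE 0.45, adjusted p = 0.0323).

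Meox1, a homeobox transcription factor that drives fibroblast activation in the stressed mouse heart (ENSMUSG00000001493, chromosome 11, 101877510 to 101894374, minus strand), had the largest log2 fold change of the 9 at each time. KO-8 had 9.25, 9.47, 16.6 and 13.2 CPM, against 7.23, 7.004, 7.33, 7.51 and 6.56 CPM in WT-8. All 4 KO-8 libraries lay above WT-8, and the log2 fold change was 0.77 (SE 0.14, adjusted p = 0.00460), or 0.58 (adjusted p = 0.00708) without KO-8 replicate 3. KO-16 had 5.14, 39.3, 52.9, 32.7 and 10.03 CPM, against 2.19, 4.54, 5.19, 4.20 and 3.10 CPM in WT-16. The groups touched, since KO-16 replicate 1 (5.14) lay just under WT-16 replicate 3 (5.19). Meox1 averaged 28.0 ± 20.1 CPM in KO-16 and 3.84 ± 1.19 CPM in WT-16 (SD, n = 5 each), a 6.96-fold rise (log2 fold change 2.80, SE 0.52, adjusted p = 0.0221). Meox2, its paralog, did not share this: it fell at 8 weeks, by 0.38 on the log2 scale (adjusted p = 0.0222), and had a log2 fold change of -0.13 (adjusted p = 0.632) at 16 weeks.

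Fap, a membrane serine protease of activated fibroblasts (ENSMUSG00000000392, chromosome 2, 62500943 to 62574075, minus strand), did not pass at either time. KO-8 had 6.83, 6.16, 9.47 and 6.65 CPM, against 6.12, 7.43, 6.397, 6.25 and 5.37 CPM in WT-8. KO-16 had 7.78, 11.03, 9.92, 10.6 and 11.8 CPM, against 7.79, 7.86, 7.48, 6.62 and 6.87 CPM in WT-16. In KO-16, 4 of the 5 libraries lay above every WT-16 library, and replicate 1 lay within their range. The log2 fold change was 0.21 at 8 weeks (SE 0.13, adjusted p = 0.341), and 0.47 at 16 weeks (SE 0.15, adjusted p = 0.0950). Without KO-16 replicate 1 Fap passed (0.56, adjusted p = 0.0289).

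Cthrc1, a secreted collagen triple-helix repeat protein that marks injury-activated fibroblasts in mouse (ENSMUSG00000054196, chromosome 15, 39076932 to 39087121, plus strand), had too few counts for the filter. The counts were 1, 3, 3 and 9 in KO-8, against 2, 1, 0, 0 and 0 in WT-8. KO-16 had 3, 85, 60, 5 and 3 counts (0.208, 2.44, 3.63, 0.588 and 0.478 CPM), against 0, 0, 4, 0 and 0 in WT-16 (0.184 CPM in replicate 3). Replicates 2 and 3 of KO-16 held most of its 156 counts. Every KO-16 library lay above every WT-16 library in CPM, but not in counts. KO-16 replicate 1 had 0.208 CPM from 3 counts, and WT-16 replicate 3 had 0.184 CPM from 4 counts. The share of all genes without overlap at 16 weeks (4.24%, 2.01% with KO higher) was taken over the 15503 genes tested, which leave out Cthrc1. A fit with no filter on low counts gave log2 fold changes of 2.66 at 8 weeks (SE 0.79, adjusted p = 0.0202), and 4.06 at 16 weeks (SE 0.85, adjusted p = 0.00632). Their size depends on the prior count, since most WT libraries had 0 counts. At 8 weeks Cthrc1 had 16 counts in all KO-8 libraries together and 3 in WT-8. That fit also gave Meox1 a far smaller unadjusted p at 8 weeks, 2.93e-14 against 8.60e-05 with the filter, by the edgeR quasi-likelihood test. The p-values of Cthrc1 are therefore not on the same footing as those of the 9 tested markers.

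**Figure D2:**
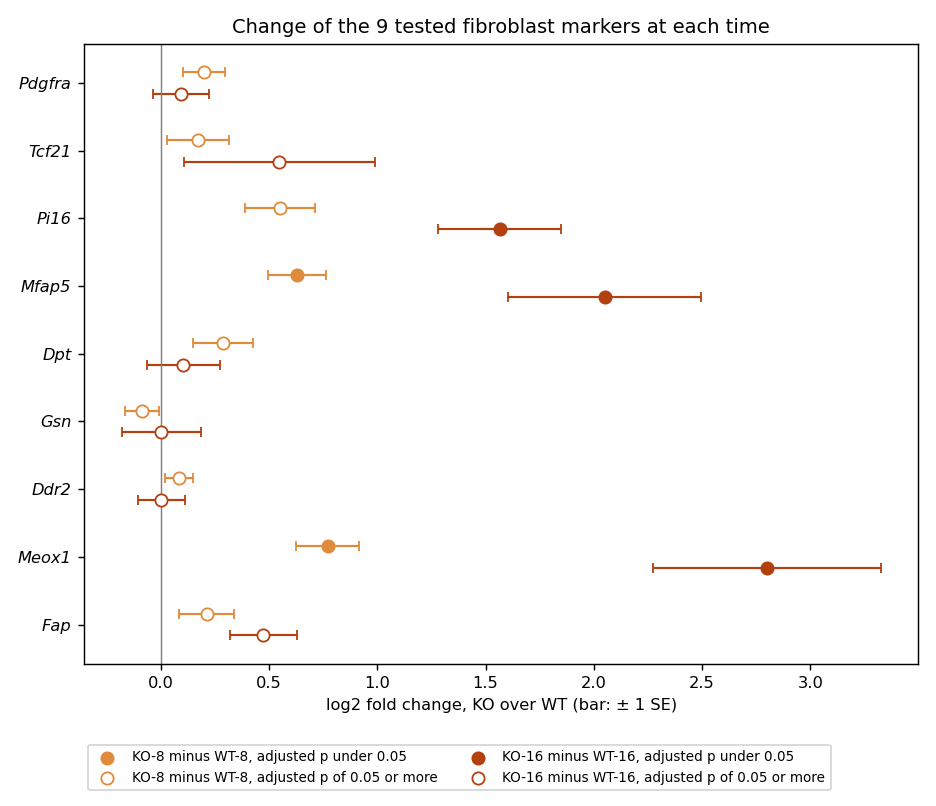
Log2 fold change (KO over WT, horizontal axis) of the 9 tested markers at 8 weeks (light) and 16 weeks (dark), with bars of 1 SE. Filled points had an adjusted p under 0.05. Meox1 (0.77 and 2.80) and Mfap5 (0.63 and 2.05) are filled at both times and Pi16 (1.56) at 16 weeks, while the points of Ddr2 and Gsn lie within 0.1 of 0.

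The calls of Pi16, Mfap5 and Meox1 at 16 weeks depended on which libraries were in the fit. Leaving out 1 library at a time, their log2 fold changes ran over 1.23 to 1.73, 1.72 to 2.30 and 2.44 to 3.06, so direction was kept. None of the 3 passed without WT-16 replicate 1, 2, 4 or 5, where the adjusted p-values were 0.0584 to 0.102. Mfap5 also failed without WT-16 replicate 3 (adjusted p = 0.0517) and without KO-16 replicate 2 (0.0795), 3 (0.0910) or 4 (0.0785), and Meox1 without KO-16 replicate 3 (0.0539) or 4 (0.0607). All 3 passed with smaller p-values without KO-16 replicate 1 (adjusted p = 0.000881 for Pi16, 0.000894 for Mfap5 and 0.000324 for Meox1) and without KO-16 replicate 5 (0.00855, 0.01035 and 0.00711).

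Because the share of counts on 18S RNA differed between libraries at 16 weeks, the results were also computed with it. With the share as a covariate, Pi16, Mfap5 and Meox1 had log2 fold changes of 1.31, 1.78 and 2.54 and did not pass (adjusted p = 0.0592, 0.108 and 0.0677). Among the 6 libraries over 20% (2 KO and 4 WT) they had 1.35, 1.74 and 2.58 and all passed (adjusted p = 0.00380, 0.0215 and 0.00467). Without the male libraries none passed, at 1.57, 2.11 and 2.68 (adjusted p = 0.141, 0.168 and 0.150). With sex as a covariate all 3 passed.

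The change at 16 weeks set against that at 8 weeks was tested directly over all 19 libraries. That fit shares 1 common coefficient of variation (0.172), where the times fitted apart had 0.0945 at 8 weeks and 0.242 at 16 weeks. Its SEs and p-values rest on that shared spread. In the 6 alternative fits, which include voom with a variance weight per group, 0 markers passed. The difference in log2 fold change was 2.02 (SE 0.61, adjusted p = 0.2799) for Meox1, 1.42 (SE 0.53, adjusted p = 0.310) for Mfap5 and 1.004 (SE 0.37, adjusted p = 0.310) for Pi16. Among all 15503 genes 0 passed by the edgeR quasi-likelihood test (0% called), with 2005 at an unadjusted p under 0.05 and 30 with DESeq2. The unadjusted p was 0.00344 for Meox1, 0.0134 for Mfap5 and 0.0135 for Pi16. Without KO-16 replicate 1 the difference passed for Meox1 (2.28, adjusted p = 0.00880) and Mfap5 (1.67, adjusted p = 0.0258). For the other 6 tested markers it lay between -0.19 and 0.36 (adjusted p of 0.565 to 0.881).

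The 10 markers did not move as a block across libraries. KO-8 replicate 3 was highest of its group for 7 of them (Pdgfra, Pi16, Mfap5, Dpt, Gsn, Meox1 and Fap) and lowest for Tcf21. KO-16 replicate 3 was highest for Tcf21, Pi16, Mfap5, Meox1 and Cthrc1 and lowest for Pdgfra and Ddr2. KO-16 replicate 5 was highest for Pdgfra, Dpt, Ddr2 and Fap and lowest for Tcf21. Replicate 1 of KO-16 was lowest for Pi16, Mfap5, Meox1, Cthrc1 and Fap, and it had 25.98 CPM of Mpc1, the most in KO-16, where the lowest library had 9.07 and the median was 14.6 CPM. The part of residual Mpc1 in that library was not tested.

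Dividing each marker by Pdgfra in the same library gives a level per unit of a lineage marker. These ratios are descriptions, on a log2 scale with 0.1 CPM added, and they assume nothing about cell number. At 16 weeks Meox1 reached 10.8%, 86.2%, 118%, 59.0% and 14.9% of Pdgfra in KO libraries, against 4.52%, 10.6%, 9.79%, 8.25% and 6.45% in WT libraries. The mean log2 ratio was 2.35 higher in KO-16 than in WT-16, and the groups lay apart by a narrow margin (10.8% in the lowest KO and 10.6% in the highest WT). Pi16 reached 44.6% to 171% of Pdgfra in KO-16, against 19.6% to 35.5% in WT-16, a mean log2 difference of 1.40, with the groups apart. Mfap5 reached 15.6% to 119% in KO-16, against 10.6% to 18.9% in WT-16, a difference of 1.64 with overlap. At 8 weeks the ratio of Meox1 was 17.1% to 23.9% in KO, against 11.9% to 14.7% in WT, and that of Mfap5 30.0% to 35.3% in KO, against 20.8% to 25.6% in WT, both apart. The ratio of Gsn was lower in KO at 8 weeks, 888% to 972% in KO against 1065% to 1242% in WT, and overlapped at 16 weeks. The ratio of Pi16 overlapped at 8 weeks, at 64.6% to 94.6% in KO against 56.5% to 73.7% in WT. The ratios of Dpt, Ddr2, Tcf21 and Fap overlapped at both times. The share of all genes whose ratio to Pdgfra lay apart was not computed.

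**Figure D3:**
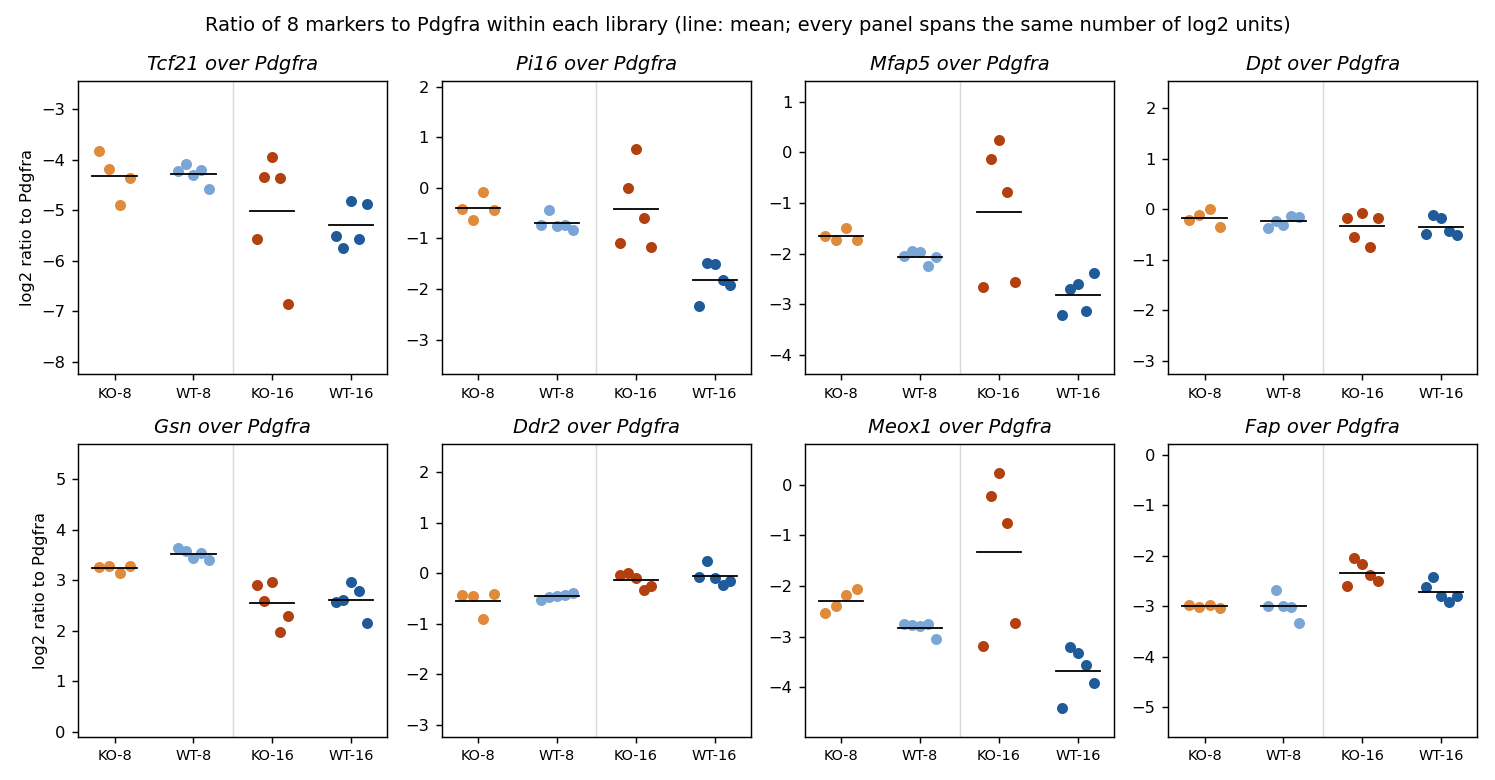
Log2 ratio of 8 markers to Pdgfra within each library (vertical axis, the same number of log2 units in every panel), with groups along the horizontal axis and KO left of WT at each time. Points are libraries and lines are group means. KO-16 replicates 2, 3 and 4 stand far above WT-16 for Meox1 and Mfap5, the 5 KO-16 libraries stand above WT-16 for Pi16, and Dpt and Ddr2 overlap between KO and WT at each time.

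Between genes, levels were compared as CPM per kilobase of exonic length. Gsn led in every group, with 175 ± 25.0 in KO-8, 186 ± 6.49 in WT-8, 97.2 ± 18.7 in KO-16 and 96.9 ± 24.4 in WT-16 (SD, n = 4 in KO-8 and 5 in the others). Dpt came next in every group, with 30.7 ± 8.91 in KO-8, 25.1 ± 2.63 in WT-8, 24.2 ± 6.52 in KO-16 and 22.3 ± 3.10 in WT-16. Below them, Pi16, Pdgfra, Meox1, Mfap5 and Ddr2 lay at 4.27 to 7.26 in KO-8, where each neighbour overlapped with the next. In KO-16 Meox1 stood in place 3 of 10, at 12.6 ± 9.02, followed by Mfap5, Pi16, Pdgfra and Ddr2, and each neighbour from Dpt to Ddr2 overlapped. In WT-16 Meox1 stood in place 7, at 1.73 ± 0.54, behind Ddr2, Pdgfra, Pi16 and Mfap5. Fap, Tcf21 and Cthrc1 took the last 3 places in all 4 groups.

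Likeness to other genes was measured as Pearson's r of log2 CPM after subtracting each group mean, over the 19 libraries, in which the values compared come from the same libraries and so share each library's depth and run. Among the markers, Mfap5 and Meox1 were most alike (r = 0.93), followed by Pi16 and Meox1 (0.86) and Pi16 and Mfap5 (0.83). Group means were subtracted but group spread was not equalised, so the KO-16 libraries weigh most in these values. The coefficient of variation of Meox1 was 71.7% in KO-16, against 5.1% to 31.0% in the other groups. Likeness within each group was not computed. Pdgfra was like Dpt (0.72) and unlike Meox1 (-0.11) and Mfap5 (-0.12). Over all genes the 3 nearest to Meox1 were Igfbp7 (0.97), Fat1 (0.95) and Col8a1 (0.95), and the 3 nearest to Mfap5 were Col8a1 (0.97), Emp1 (0.96) and Igfbp7 (0.96). Pi16 was nearest to Ifngr1 (0.93), the proteoglycan gene Dcn (0.92) and Comp (0.91). Pdgfra was nearest to Ppp3ca (0.88), Atad2b (0.81) and Il6st (0.80), and genes like Dpt included Thbs2 (0.77) and Gabpb2 (0.75). Nearest to Tcf21 were Wdr47 (0.92), Tmem53 (0.91) and Ints5 (0.91), and nearest to Gsn were Kdm6a (0.86), Mmp9 (0.84) and Tut1 (0.84). Ddr2 had Zfp846 (0.86), Enc1 (0.82) and Sparcl1 (0.80), and Fap had Agmo (0.82), Cracr2a (0.77) and Zfp994 (0.76). The r values of low genes such as Tcf21 rest on few counts.

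Other genes of resting fibroblasts were examined as a list of 17 (Lum, Dcn, Scara5, Cd34, Col1a1, Col1a2 and others). At 8 weeks 8 of the 17 rose, where 3.54% of all genes were called higher, and 0 fell, with a median log2 fold change of 0.31. At 16 weeks 7 rose, where 1.74% of all genes were called higher, and 0 fell, with a median of 0.78. Those with the smallest adjusted p include collagen and microfibril genes that activated fibroblasts are also known to make. At 16 weeks they were Mfap4, a microfibril protein (3.08, SE 0.51, adjusted p = 0.0115), the secreted glycoprotein gene Fstl1 (1.72, SE 0.29, adjusted p = 0.0149), and the collagen I chains Col1a2 (2.16, SE 0.39, adjusted p = 0.0182) and Col1a1 (2.04, SE 0.41, adjusted p = 0.0271). At 8 weeks Col1a2 rose by 0.72 (SE 0.07, adjusted p = 2.42e-05) and Fstl1 by 0.59 (SE 0.07, adjusted p = 0.000193) on the log2 scale. Scara5 and Ly6a did not pass at either time, and Scara5 had values of -0.21 and -0.79. The 8-week count was 13 with no filter on low counts and 0 with a spread shared by all 19 libraries. The 16-week count was 13 without KO-16 replicate 1 and 0 to 4 without any single WT-16 library or KO-16 replicate 2, 3 or 4. It was 1 with 18S as a covariate, and 0 when the male libraries were dropped. With other methods it was 12 with the shared spread, 12 with voom and quality weights (11 higher and 1 lower) and 11 with DESeq2.

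A list of 9 genes of adventitial fibroblasts, the class that Pi16 marks, had 0 genes called higher at either time, where 3.54% of all genes were called higher at 8 weeks and 1.74% at 16 weeks. In a list of 9 genes, 0 called higher is near these shares. At 8 weeks 2 of the 9 fell, where 4.68% of all genes were called lower, and the list median was -0.25. The dipeptidyl peptidase gene Dpp4, also the nearest relative of Fap, fell by 0.42 (SE 0.12, adjusted p = 0.0340) on the log2 scale. The atypical chemokine receptor gene Ackr3 fell by 0.33 (SE 0.09, adjusted p = 0.0303). Both calls depended on single libraries, and the count was 0 to 2 when 1 was left out, being 0 without KO-8 replicate 2 or WT-8 replicate 2, and 1 without KO-8 replicate 1 or 3 or WT-8 replicate 1 or 3. At 16 weeks 0 of 9 passed, with a median of -0.05, and the smallest adjusted p-values were 0.117 for Anxa3 (log2 fold change 0.59), 0.176 for Procr (1.156), 0.240 for Sema3c (-0.30) and 0.364 for Ly6c1 (0.35). With voom and quality weights, with a spread shared by all 19 libraries, or without KO-16 replicate 5, 1 of the 9 was called higher at 16 weeks, and with the shared spread 0 were called at 8 weeks.

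Of 22 further activation genes 19 were tested, and Lrrc15, Chad and Cilp2 were not. At 8 weeks 10 rose and 1 fell (Ccn2, by 0.63 on the log2 scale, adjusted p = 0.0471), with a median of 0.76. Of all genes, 3.54% were called higher and 4.68% lower at that time. At 16 weeks 11 rose, where 1.74% of all genes were called higher, and 0 fell, with a median of 2.78. The smallest adjusted p-values belonged to matricellular and collagen genes. Cilp had 134 ± 117 CPM in KO-16 and 3.01 ± 1.34 CPM in WT-16 (SD, n = 5 each), which is 5.35 on the log2 scale (SE 0.75, adjusted p = 0.00592). Col8a1, a short-chain collagen, had 3.22 (SE 0.49, adjusted p = 0.00848), periostin (Postn) 2.85 (SE 0.45, adjusted p = 0.00893) and thrombospondin 4 (Thbs4) 5.45 (SE 0.93, adjusted p = 0.0150). At 8 weeks fibronectin (Fn1) rose by 0.56 (SE 0.07, adjusted p = 0.000313) and tenascin C (Tnc) by 1.47 (SE 0.19, adjusted p = 0.000450) on the log2 scale. Acta2, the smooth muscle actin of myofibroblasts, had 0.55 (adjusted p = 0.368) at 8 weeks and 0.18 (adjusted p = 0.770) at 16 weeks. The 16-week count was 3 to 16 with 1 library left out (3 to 7 without any single WT-16 library or KO-16 replicate 2, 3 or 4), 3 with 18S as a covariate and 0 when the male libraries were dropped, and the 8-week count was 7 higher and 0 lower without KO-8 replicate 3, where Ccn2 was not called, and 0 with the shared spread.

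Of 16 genes for ligands and receptors around Pdgfra, Ddr2 and TGF-beta, 1 rose at 8 weeks and 1 at 16 weeks, and 0 fell at either time, with medians of 0.17 and 0.48. These counts are near the shares called higher among all genes, 3.54% and 1.74%. The ligand gene Pdgfd rose at 8 weeks by 0.34 (SE 0.09, adjusted p = 0.0225) on the log2 scale. Tgfb3 had 0.35 (adjusted p = 0.0662) at 8 weeks and rose at 16 weeks by 1.24 (SE 0.24, adjusted p = 0.0233). At 16 weeks Fgf2 had -0.58 (adjusted p = 0.0654), Tgfb2 1.19 (adjusted p = 0.0695) and Pdgfrb, the beta PDGF receptor, 0.71 (adjusted p = 0.0699). The 16-week count was 0 without WT-16 replicate 1, 2, 4 or 5 or KO-16 replicate 2, 3 or 4, and 7 or 6 without KO-16 replicate 1 or 5. With other methods it was 9 with the shared spread, 6 with voom and 5 with DESeq2. The 8-week count was 4 with DESeq2 and 0 with the shared spread, and it was 0 without WT-8 replicate 1, 2 or 3, 4 without KO-8 replicate 1, 3 without KO-8 replicate 2 and 2 without WT-8 replicate 5.

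A list of 19 genes held relatives of the markers by sequence family and Mfap4, which shares its name with Mfap5 but belongs to another family, and 17 were tested. At 8 weeks 2 rose and 2 fell, where 3.54% of all genes were called higher and 4.68% lower. At 16 weeks 1 rose and 0 fell, where 1.74% of all genes were called higher and 0.813% lower. Those that rose at 8 weeks were Mfap4 (1.495, SE 0.27, adjusted p = 0.00417) and Capg, an actin-capping relative of Gsn (0.45, SE 0.10, adjusted p = 0.0157), and those that fell were Dpp4 and Meox2. At 16 weeks Mfap4 passed and 0 of the relatives by family did. Mfap2, the family relative of Mfap5, had 0.30 (adjusted p = 0.4435) at 8 weeks and 0.57 (adjusted p = 0.554) at 16 weeks. At 16 weeks Crispld2, a CAP-domain relative of Pi16, had 0.77 (adjusted p = 0.0550) and Capg 1.38 (adjusted p = 0.0597).

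**Figure D4:**
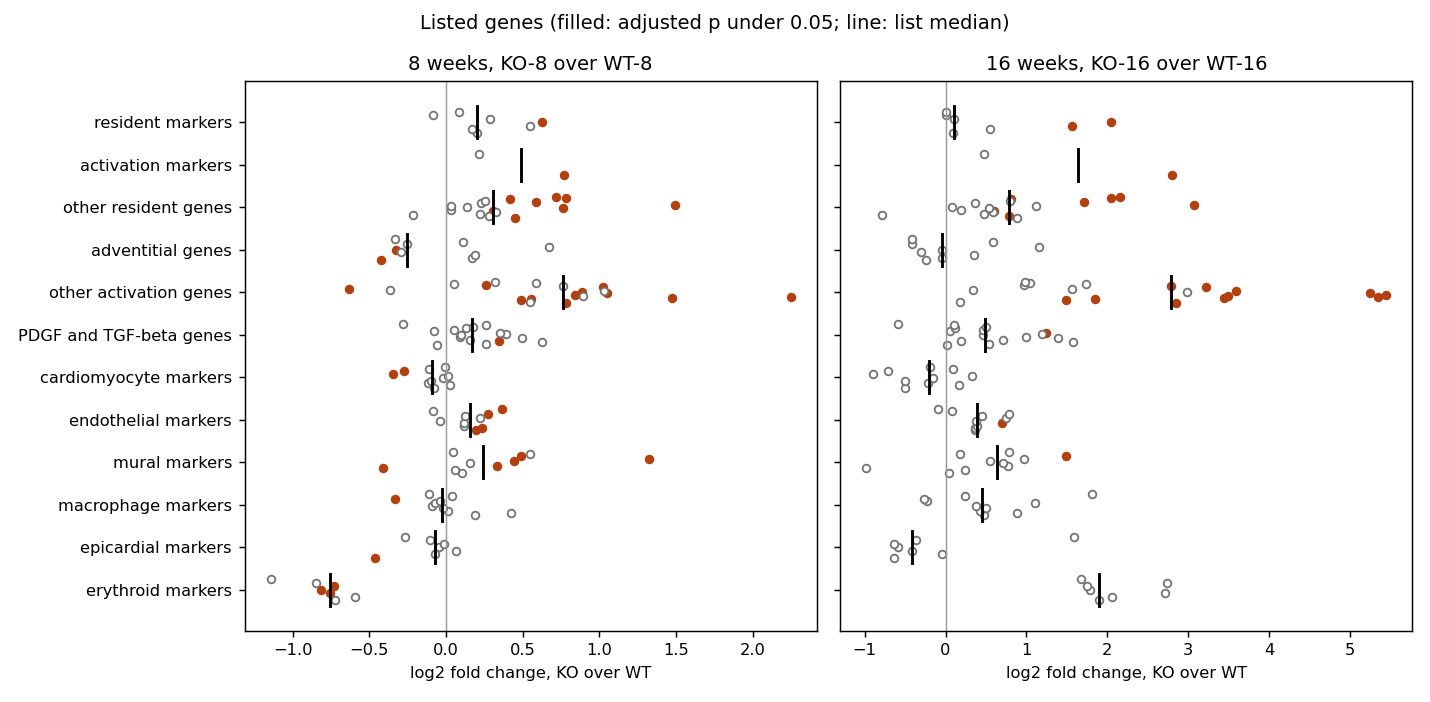
Log2 fold change (KO over WT, horizontal axis) of every tested gene in each list, at 8 weeks (left) and 16 weeks (right). Filled points had an adjusted p under 0.05 and vertical lines are list medians. The further activation genes have the largest medians among the fibroblast lists (0.76 and 2.78). The adventitial genes lie on both sides of 0 at each time, with medians of -0.25 and -0.05, and 2 of them are filled below 0 at 8 weeks.

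Markers of other cell types were read beside these results. Of all genes, 3.54% were called higher and 4.68% lower at 8 weeks, and 1.74% higher and 0.813% lower at 16 weeks. Endothelial markers rose in 4 of 10 genes at 8 weeks and 1 of 10 at 16 weeks, and 0 fell, their summed level being 1052 to 1162 CPM in KO-8, 915 to 1040 in WT-8, 933 to 1260 in KO-16 and 872 to 1040 in WT-16. Mural markers rose in 4 of 10 and fell in 1 at 8 weeks, and 1 rose at 16 weeks, with sums of 1004 to 1414 CPM in KO-16 and 1322 to 1551 in WT-16. Tagln, which is in both the mural and the activation list, accounts for that 16-week call. The lower mural sums in KO-16 stand beside positive log2 fold changes at 16 weeks in 9 of the 10 genes, with a median of 0.63. The exception was Abcc9, which averaged 310 CPM in KO-16 and 611 CPM in WT-16 (log2 fold change -0.98, adjusted p = 0.0528). Abcc9 counts as mural here only by its place in the list, and which cells of the ventricle made its RNA was not tested. Cardiomyocyte markers fell in 2 of 10 at 8 weeks and 0 of 10 passed at 16 weeks. Their sum was 92000, 90500 and 93950 CPM in KO-16 replicates 2, 3 and 4, the libraries with the highest Meox1 and Mfap5, against at least 117800 CPM in every WT-16 library. It was 127100 CPM in KO-16 replicate 1, where Meox1 and Mfap5 were lowest, and 110800 CPM in replicate 5. Ttn and Myh6 weigh most in this sum, averaging 62660 and 16970 CPM in KO-16, against 71320 and 24060 CPM in WT-16. At 16 weeks 3 of the 10 cardiomyocyte genes had positive log2 fold changes, and the list median was -0.20. Macrophage markers fell in 1 of 10 at 8 weeks and 0 of 10 passed at 16 weeks, with sums of 104 to 172 CPM in KO-16 and 102 to 132 in WT-16. Epicardial markers fell in 1 of 7 at 8 weeks (Wt1, by 0.46 on the log2 scale, adjusted p = 0.00903), and 0 passed at 16 weeks. Schwann cell markers fell in 1 of 5 at 8 weeks and 0 passed at 16 weeks. Red cell markers fell in 3 of 7 at 8 weeks (263 to 579 CPM in KO-8, 452 to 975 in WT-8) and ranged up to 1114 CPM in KO-16 and up to 133 CPM in WT-16, where 0 passed. Lymphocyte markers summed to at most 3.21 CPM in any library, 1 of 8 being tested, and adipocyte markers, of which 0 of 6 were tested, to at most 41.6 CPM. The part of these cell types in the changes of the fibroblast markers was not tested.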

How the data were processed

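RNA from ventricular tissue, depleted of ribosomal RNA, was sequenced as stranded paired-end libraries, per the labels' protocols. The deposited values are counts of read pairs per gene that the authors made with featureCounts 1.6.3 (paired, reverse-stranded, largest overlap) on GRCm38 with Ensembl 96, per the file headers. Cutadapt 1.16, FastQC, SAMtools, STAR and RSEM appear in the submitters' processing notes. The 16-week samples had 2 files each, which were summed. Gene symbols came from GENCODE M21 by gene ID, and all 55536 genes matched.

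Each time was fitted apart with edgeR 4.0.16 (quasi-likelihood, TMM factors from all 19 libraries, 15503 genes kept by filterByExpr over the 4 groups) in R 4.3.3, with Benjamini-Hochberg adjustment over all genes. The difference between the times was tested in a fit to all 19 libraries. The common coefficient of variation was 0.0945 at 8 weeks, 0.242 at 16 weeks and 0.172 over all libraries. The SE of a log2 fold change is its size over the square root of F. The steps were tested on simulated counts. The samples were grouped by the genotype and time in the labels, and none was left out. With 4 or 5 libraries a group, the precision is that of the spread between libraries, and genes under about 10 counts are limited by counting error too.

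The markers and the lists were chosen with earlier results of these data known. All 10 markers are named, of each further list up to 4 genes with the smallest adjusted p at 16 weeks and up to 2 at 8 weeks, and for each marker the 3 most alike genes with a mean of at least 1 CPM. One of these genes is not reported here. Meox2, Acta2, Ccn2, Scara5, Ly6a, Tagln, Abcc9, Wt1, Ttn and Myh6 are outside this rule and were named after their values were seen. Alternatives were RLE factors, TMM factors or a filter from the compared time alone (the latter chosen after seeing the data), no filter, 1 CPM in 4 libraries, DESeq2 1.42.0, limma 3.58.1 voom with quality weights, a spread shared by all 19 libraries, ribosomal and mitochondrial genes left out, the 18S share or sex as a covariate, libraries over 20% 18S, male libraries left out, either 16-week file by itself, and single libraries left out.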

Additional observations from a re-analysis of the deposited data

Results flagged for a closer look

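In 4 of the 40 groups of libraries examined (10 markers in 4 groups) 1 library lay far from the rest. Chance alone gives about 1 in 20 for independent, normally distributed values. The markers share the same libraries, so 4 of 40 cannot be set against that rate. Mfap5 had 26.6 CPM in KO-8 replicate 3, against 15.2 to 17.1 CPM in the other KO-8 libraries. Dpt had 75.7 CPM in the same library, against 42.7 to 46.7 CPM in the others. Pi16 had 35.5 CPM in WT-8 replicate 2, against 29.8 to 31.1 CPM in the other WT-8 libraries. Cthrc1 had 0.184 CPM in WT-16 replicate 3, from 4 counts, while the other WT-16 libraries had 0, so any value above 0 would have been flagged.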

How the results depend on the processing

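Of 386 recomputed values for single markers, 330 kept their direction and their side of the threshold, 26 no longer passed, 9 newly passed and 21 changed sign, all of these for log2 fold changes at 16 weeks that did not pass under either setting (Gsn, Ddr2, Dpt and Pdgfra). Gsn had -0.0084 with RLE factors, -0.0843 with voom and quality weights, -0.0109 with DESeq2, -0.132 with 18S as a covariate and -0.03 among libraries over 20% 18S. Ddr2 had -0.0114 with RLE factors, -0.0327 with voom, -0.0187 with DESeq2 and -0.0076 with the later files alone. With 1 library left out, the 16-week values ran over -0.0988 to 0.1351 for Gsn, -0.0672 to 0.0398 for Ddr2, -0.0542 to 0.1943 for Dpt and -0.0119 to 0.1419 for Pdgfra. The differences between the times ran over -0.0122 to 0.2222 for Gsn, -0.347 to 0.0332 for Dpt and -0.2145 to 0.0316 for Pdgfra. At 8 weeks 1274 genes and 2 markers were called. With a spread shared by all 19 libraries these were 34 and 0, without the filter on low counts 5 markers were called, and leaving out 1 library gave 866 to 1218 genes and 2 to 3 markers. At 16 weeks 395 genes (269 higher, 126 lower) and 3 markers were called. The gene count was 939 without the filter, 3125 with the shared spread, 2208 with voom and quality weights (1012 higher and 1196 lower), 1199 with DESeq2, 36 with 18S as a covariate, and 15 when the male libraries were dropped. In the last 2 settings 0 markers passed. Leaving out 1 library gave 36 to 1863 genes and 0 to 4 markers. Between the times 0 genes and 0 markers differed, against 30 genes with DESeq2 and, with 1 library left out, 0 to 582 genes and 0 to 2 markers. Pi16 at 8 weeks passed with RLE factors (adjusted p = 0.0483) and with ribosomal and mitochondrial genes left out (adjusted p = 0.0488), and Fap at 16 weeks with the shared spread (0.0268) and with voom (0.0452). The fit with a shared spread over all 19 libraries had a common coefficient of variation of 0.172, against 0.0945 at 8 weeks and 0.242 at 16 weeks fitted apart. The cause of the shifts between settings was not tested. No paired analysis was possible because the labels give no replicate number that the groups share. Depth limits Cthrc1 and Tcf21 at 16 weeks, which had 0 to 85 and 3 to 75 counts per library.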
